A study of Mus musculus with 10 samples.

Results

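The genes described here encode 7 subunits of the GABA-A receptor in mouse: the alpha subunits Gabra2, Gabra3, Gabra4 and Gabra5, the beta subunits Gabrb1 and Gabrb2, and the delta subunit Gabrd. They were taken by symbol from the count tables and are 7 of the 32531 genes listed. The rule itself uses no measured value, but the set was proposed with earlier results of these data known. The study used S100a10-TRAP mice (line ES691), in which S100a10 regulatory sequences drive an EGFP-tagged copy of the ribosomal protein Rpl10a. In TRAP, translating ribosome affinity purification, tagged ribosomes are pulled from homogenised tissue with anti-EGFP antibodies and the RNA on them is sequenced, here from cerebral cortex of adult mice in a short-access experiment with intravenous drug delivery. Immunopurified (IP) RNA gave 3 libraries for saline self-administration, 3 for cocaine self-administration and 3 for the yoked control, and the input, total RNA of the saline condition, gave 1. Every library came from the same transgenic line, and the tag is made in whichever cells use the S100a10 sequences, which in cortex include deep-layer pyramidal cells that project to the striatum. What the yoked mice received, their sex and age in weeks, and whether a library held 1 or several animals are not given in the labels, and the p-values therefore cover the spread among libraries alone, which may be technical. The library names put each group on a sequencing lane of its own, and effects of lane and of group cannot be told apart.

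GABA-A receptors are chloride channels built of several subunits around a pore, and GABA, the main inhibitory transmitter of the cortex, opens them. Alpha and beta subunits form the GABA sites, while the remaining position is usually taken by a gamma or a delta subunit. Receptors with a gamma subunit gather at synapses and answer fast release, and many of them bind benzodiazepines where an alpha subunit of a sensitive type meets gamma. Receptors with Gabrd, which often pair it with Gabra4 in the forebrain, lie mainly outside synapses and carry a steady tonic current, as do many receptors with Gabra5.

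Gabra4 and Gabrb1 are neighbours on chromosome 5, and their promoter windows are printed because the RefSeq starts of the pair lie 387 bases apart on opposite strands, at 71658308 for Gabra4 (minus strand) and 71657921 for Gabrb1 (plus strand). From these starts the genes run towards each other, so the stretch between the starts lies in both. The first window of Gabrb2 on chromosome 11 is printed beside those of the pair because it also held a match to the motif found at Gabrb1. Each sequence is a RefSeq window of 300 bases on GRCm38.p6, from 250 bases before the start to 50 after it, written 5′ to 3′ on the strand of the gene, with motif matches in capitals. The motifs searched on both strands were the Egr element GCGNGGGCG, the cAMP response element TGACGTCA, the E-box CACGTG and the TATA box TATAAA, which do not overlap in any window printed.
Gabra4, chr5:71658259-71658558: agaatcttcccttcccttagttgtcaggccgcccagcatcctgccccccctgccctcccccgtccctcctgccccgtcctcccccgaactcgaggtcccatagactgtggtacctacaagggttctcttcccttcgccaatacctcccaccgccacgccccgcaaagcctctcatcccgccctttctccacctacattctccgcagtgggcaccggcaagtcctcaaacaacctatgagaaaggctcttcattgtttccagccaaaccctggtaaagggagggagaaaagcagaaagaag
Gabrb1, chr5:71657671-71657970: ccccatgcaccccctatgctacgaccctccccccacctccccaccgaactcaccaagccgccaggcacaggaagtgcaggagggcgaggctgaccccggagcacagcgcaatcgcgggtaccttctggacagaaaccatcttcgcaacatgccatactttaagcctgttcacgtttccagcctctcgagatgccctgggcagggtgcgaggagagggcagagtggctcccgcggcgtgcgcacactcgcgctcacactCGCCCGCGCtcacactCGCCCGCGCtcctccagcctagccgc
Gabrb2, chr11:42420190-42420489: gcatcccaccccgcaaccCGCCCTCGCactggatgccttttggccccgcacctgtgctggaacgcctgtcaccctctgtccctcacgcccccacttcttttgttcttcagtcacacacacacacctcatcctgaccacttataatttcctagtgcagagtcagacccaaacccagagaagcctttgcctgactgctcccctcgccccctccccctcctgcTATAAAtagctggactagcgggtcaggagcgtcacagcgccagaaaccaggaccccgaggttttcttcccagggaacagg
The printed Gabrb1 window held 2 Egr matches on the reverse strand, whose first bases on the printed strand lie 8 and 24 bases past the start. In the Gabrb2 window an Egr match on the reverse strand began 232 bases before the start and a TATA box 30 bases before it. The Gabra4 window held none of the 4 motifs. Of all 32851 RefSeq windows, 5.55% held an Egr match, 1.79% a cAMP response element, 7.15% an E-box and 13.6% a TATA box. These matches describe letters, not binding. Windows were present for 6 of the 7 genes, 10 windows in all, and none for Gabrd. Egr matches occurred in 2 of these 6 genes, Gabrb1 and Gabrb2, and TATA boxes in 2, Gabrb2 and Gabra3. The cAMP response element and the E-box occurred in 0. These counts are per gene, some with several windows, whereas the percentages above are per window. G and C made up 66.0% of the printed Gabrb1 window and 59.0% of the printed Gabrb2 window, against a median of 52.7% over all windows. The second Gabrb1 window, from 71699682, and the other windows of Gabrb2 held none of the 4 motifs.

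Reads assigned to genes numbered 38653752 to 50898401 per IP library and 69974908 for input RNA. S100a10, whose sequences drive the tag, checked the line: it stood at 235 ± 56.1 CPM (a count scaled to the size of its library; SD, n = 3) in saline IP against 35.3 in the input, 6.66-fold higher in the test described below for the subunits (edgeR adjusted p = 7.52e-05). The labels call the cells neurons. Excitatory neuron markers were present at the level of the input (10 genes, summed CPM 3697 to 5342 in saline IP against 5124), and meningeal fibroblast markers stood far above it (14 genes, 2421 to 3412 against 135). The IP libraries numbered 3 stood apart from those numbered 1 and 2 in all 3 groups. Their excitatory sums were 5342 to 5478 CPM against 3697 to 4925 in the other 6 IP libraries, and their meningeal sums 3412 to 3536 against 2073 to 2929.

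Among the alpha subunits, Gabra3 (X chromosome, 72432681 to 72656848, minus strand) was the steadiest. It was at 48.2, 47.2 and 59.8 CPM in saline IP, 46.7, 47.4 and 55.1 in cocaine IP, 47.6, 53.2 and 52.3 in yoked IP and 116 in the input. All 9 IP libraries lay far below the input, the 3 groups overlapped, and the coefficient of variation over the 9 was 8.96%. Gabra2 (chromosome 5, 70957597 to 71095849, minus strand), which encodes an alpha subunit of benzodiazepine-sensitive receptors, followed no order shared by the groups. It was at 10.4, 7.27 and 10.6 CPM in saline IP, 10.5, 14.1 and 11.4 in cocaine IP, 14.7, 8.37 and 11.5 in yoked IP and 20.7 in the input. Each IP library was below the input, the groups overlapped, and the highest value came from library 2 in cocaine but library 1 in yoked.

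Gabra4 (chromosome 5, 71569749 to 71658308, minus strand), the usual partner of Gabrd, was at 63.3, 55.7 and 71.3 CPM in saline IP, 55.2, 63.3 and 71.7 in cocaine IP, 72.1, 60.4 and 82.5 in yoked IP and 95.6 in the input. The library numbered 3 was the highest of its group each time, and the groups overlapped. Gabra5 (chromosome 7, 57407672 to 57510059, minus strand) varied most of the 7, with a coefficient of variation of 26.4%. It was at 26.7, 38.8 and 57.2 CPM in saline IP, 32.9, 37.2 and 55.7 in cocaine IP, 56.7, 38.3 and 53.2 in yoked IP and 66.3 in the input. Saline library 1 was the lowest of all, and yoked library 1 was level with the libraries numbered 3.

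Gabrb2 (chromosome 11, 42419757 to 42629028, plus strand), encodes a beta subunit of widespread cortical receptors. It was at 152, 149 and 244 CPM in saline IP, 170.1, 158 and 229 in cocaine IP, 150.2, 192 and 227 in yoked IP and 342 in the input. Again the library numbered 3 was the highest of each group, and the groups overlapped. Gabrb1 (chromosome 5, 71658113 to 72149037, plus strand) was at 7.30, 10.8 and 12.3 CPM in saline IP, 11.3, 9.48 and 13.8 in cocaine IP, 8.76, 11.1 and 13.3 in yoked IP and 19.3 in the input. It followed the same order, highest in library 3 of every group and below the input in each. In the GENCODE M21 annotation Gabra4 and Gabrb1 share 46 bases of exon on opposite strands, 0.8% and 0.3% of their exon bases. Gabra5 shares 5.0% with the gene model Gm9962. The RefSeq start of Gabrb1 given above, 71657921, differs from its GENCODE start of 71658113, so the shared stretch may differ between annotations.

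Gabrd (chromosome 4, 155384980 to 155398112, minus strand) stood closest to the input. It was at 35.6, 23.2 and 41.0 CPM in saline IP, 20.3, 26.7 and 39.1 in cocaine IP, 29.2, 25.1 and 32.9 in yoked IP and 34.1 in the input. Of the 9 IP libraries, 6 were below the input, and saline libraries 1 and 3 and cocaine library 3 were above it. Raw counts behind these values ranged from 322 for Gabra2 to 11211 for Gabrb2 in an IP library, so counting error is small beside the spread between libraries.

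**Figure D1:**
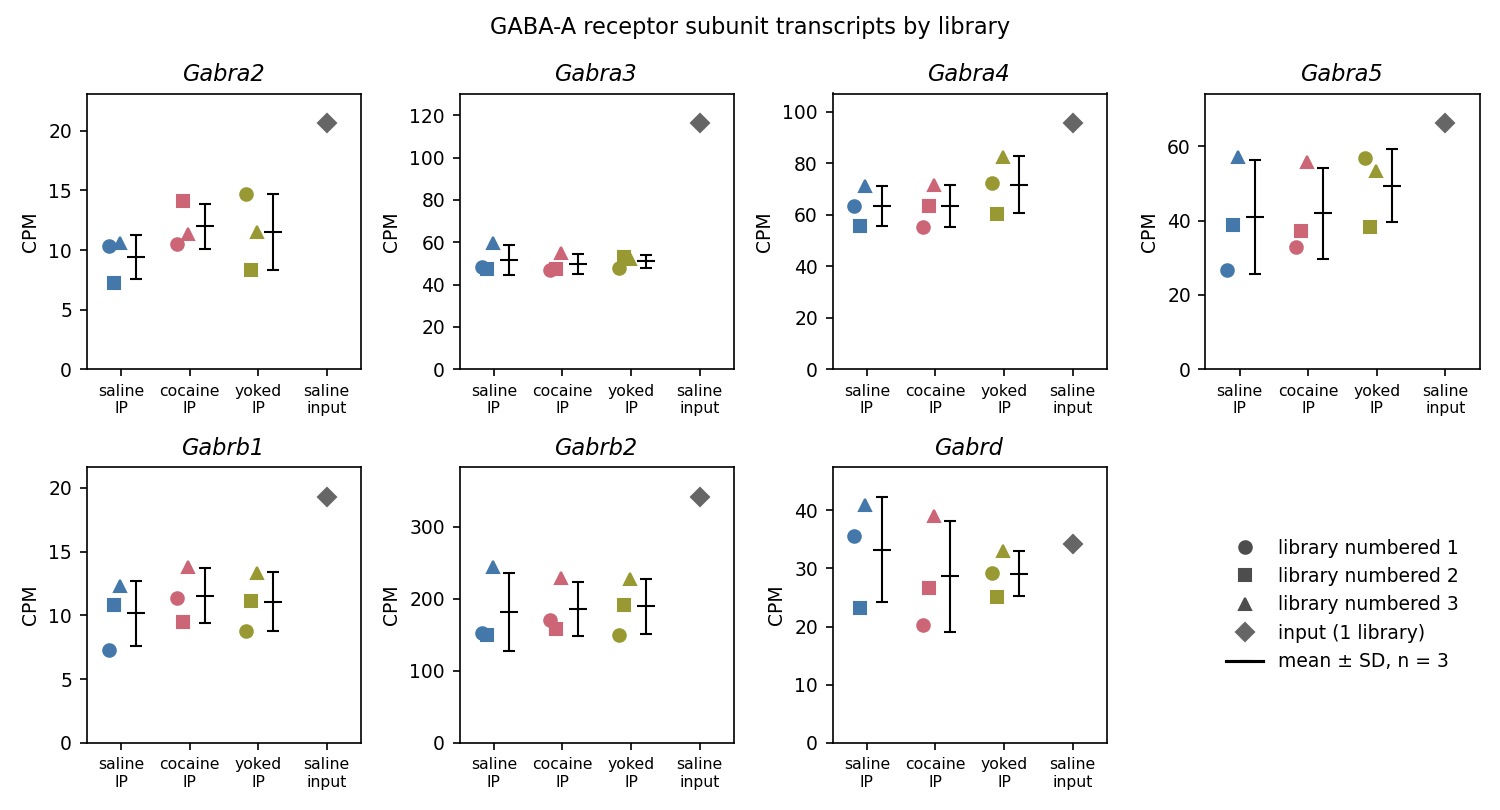
CPM (vertical axes, from 0) of the 7 subunit genes in each library, with the shape giving the library number, bars the mean ± SD of 3 IP libraries, and a diamond the input. Gabra3 sits at 46.7 to 59.8 in IP against 116 in the input, whereas the input value of Gabrd (34.1) lies inside its IP range of 20.3 to 41.0.

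The comparison of saline IP with the input asks which transcripts the tagged ribosomes carried relative to whole cortex. Transcripts of 2 of the 7 subunits fell, both alphas: Gabra3 was 2.25-fold lower in IP and Gabra2 2.19-fold lower. The other 5 had lower fitted values that did not pass the test, from Gabrb1 at 1.90-fold and Gabrb2 at 1.88-fold to Gabrd, which lay at the input level and was above it when scaled by library size alone (log2 fold change 0.031) or to pan-neuronal genes (0.14). Calls were made below an adjusted p of 0.05 (edgeR quasi-likelihood test, Benjamini-Hochberg adjustment over 18437 genes), which 11.3% of all genes passed, 4.26% as lower and 7.07% as higher in IP. DESeq2 called 3 of the 7 lower, adding Gabrb2 (adjusted p = 0.0439), with 14.8% of its genes called. With 1 input library, the error of the input was borrowed from the IP libraries.

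Gabra3 had a log2 fold change (log2FC) of -1.17 ± 0.20 (SE; edgeR adjusted p = 0.00185), from 51.7 ± 7.02 CPM in saline IP (SD, n = 3) against 116 in the input. It was called under each of the 13 alternatives run, with log2FC from -1.30 to -0.999. Gabra2 had a log2FC of -1.13 ± 0.31 (adjusted p = 0.0314), from 9.41 ± 1.85 CPM against 20.7. Its call was lost without saline replicate 1 (-1.21, adjusted p = 0.0547) or 2 (adjusted p = 0.0694), with libraries scaled to pan-neuronal genes (-0.95, adjusted p = 0.112) and with each library's trend on transcript length removed (-0.97, adjusted p = 0.0833), within a range of 0.00723 to 0.112 over the 13.

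Gabrb1 (-0.93 ± 0.32, adjusted p = 0.0772) and Gabrb2 (-0.91 ± 0.30, adjusted p = 0.0686) missed the threshold. So did Gabra5 (-0.70 ± 0.37, adjusted p = 0.266) and Gabra4 (-0.59 ± 0.23, adjusted p = 0.120). Gabrd had a log2FC of -0.04 ± 0.35 (adjusted p = 0.967), and its interval of -0.80 to 0.72 holds a fall as large as that of Gabra4. Saline replicate 3, the highest for all of the 7, moved the count of calls: without it 4 of the 7 were lower, with Gabrb1 at -1.10 (adjusted p = 0.0480) and Gabrb2 at -1.19 (adjusted p = 0.0105). Over all genes, the 3 fits that each left out a saline replicate called 1464 to 2075, against 2089 with every library. Without the 3 libraries numbered 3, which was tried after seeing the data, 6 of the 7 were lower and 3442 genes were called against 2089.

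All 7 log2FC were below 0, where 48.4% of all genes were, and their median was -0.91 against 0.02 over all genes tested. Library by library, 6 of the 7 stayed under the input 9 times of 9, as 22.5% of all genes tested did. The 9 ratios of a gene share the 1 input library, so any error of the input enters all of them. The median of the 7 was -1.16, -0.83 and -0.48 in saline libraries 1 to 3, -0.98, -0.83 and -0.48 in cocaine and -0.49, -0.80 and -0.53 in yoked. The IP is RNA on ribosomes and the input is total RNA. Fewer cells with a transcript, less of it per cell and a smaller part of it on ribosomes therefore cannot be told apart. Interneuron markers were lower in IP too, with 4 of 16 called (median -1.36, summed CPM 609 to 959.9 in saline IP against 1467 in the input), as were 7 of 12 striatal neuron markers (671 to 709 against 955). None of the interneuron markers was at 0 in an IP library. Oligodendrocyte markers had 5 of 12 lower (median -2.11, 325 to 704 against 1616), and RNAs that stay in the nucleus had 7 of 10 lower (median -2.58, 225 to 294 against 5089.9). Microglia markers had 2 of 12 lower and 1 higher (median -1.08), and astrocyte markers 3 of 12 lower and 2 higher (median -0.22). Hippocampal or thalamic neuron markers had 2 of 8 lower and 2 higher. Endothelial markers had 4 of 12 higher and 0 lower, and meningeal markers 14 of 14 higher. Pan-neuronal genes were near the input (median -0.07, 1 of 19 lower). Of all genes tested, 4.26% were called lower and 7.07% higher. The part these cell types and nuclear RNA take in the subunit values was not tested.

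**Figure D2:**
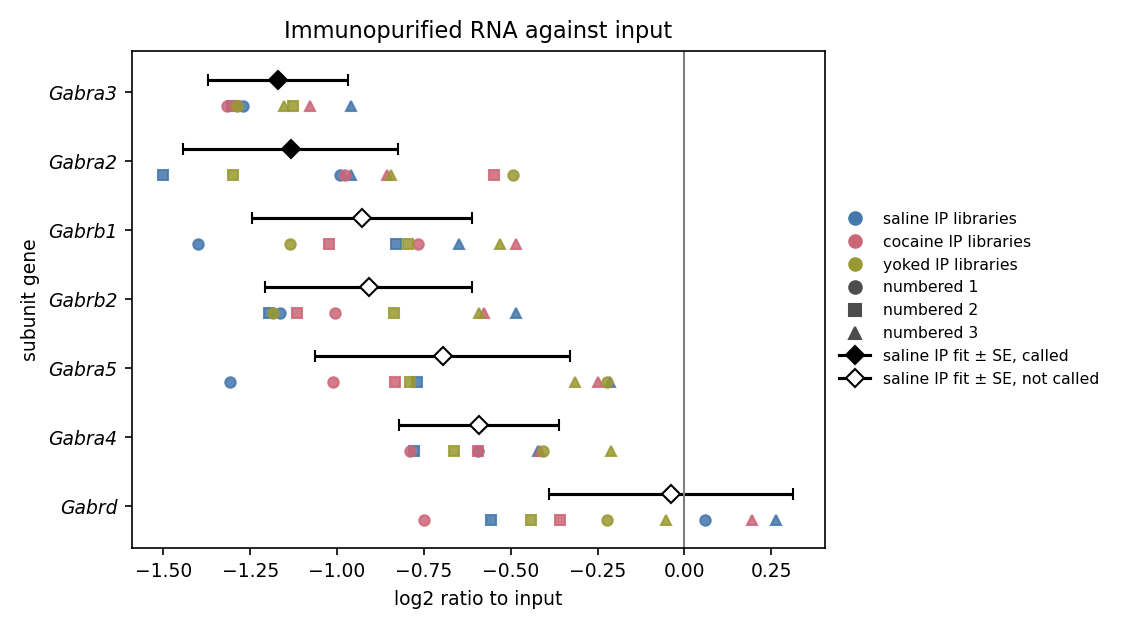
Log2 ratio to the input (horizontal axis) for each subunit gene: coloured points are the 9 IP libraries, and diamonds the saline IP fit ± SE, filled where called. The points of 6 genes lie below 0 throughout, and those of Gabrd run from -0.75 to 0.26.

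Levels of different genes can be compared only per length, so CPM was divided by the longest annotated protein-coding transcript in kilobases. On that scale Gabrb2 led at 45.6 ± 13.5 CPM per kilobase in saline IP (SD, n = 3). Gabrd followed at 17.3 ± 4.74, Gabra4 at 15.4 ± 1.90, Gabra5 at 15.3 ± 5.73 and Gabra3 at 14.1 ± 1.92, and these 4 did not differ beyond their spread. That order depended on the transcript model: with the median transcript length Gabra4 came next after Gabrb2, at 26.4 ± 3.25, ahead of Gabra3 at 19.0 ± 2.57, Gabrd at 17.3 ± 4.74 and Gabra5 at 15.7 ± 5.87. The share of Gabra4 (18.2% ± 2.15) then lay beyond the spread of Gabra5 (10.5% ± 2.33) and Gabrd (11.8% ± 2.24). Gabra2 (1.61 ± 0.317) and Gabrb1 (0.739 ± 0.188) were an order lower. Both of these have the longest transcripts used, 5.85 and 13.7 kilobases. The gene annotation behind the counts is not given in the sources used here, so a shorter model would raise their values.

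As a share of the 7 summed per kilobase, Gabrb2 made up 41.1% ± 2.29 in saline IP, 42.7% ± 2.59 in cocaine IP and 41.1% ± 5.37 in yoked IP, against 45.5% in the input. Gabrd made up 15.7% ± 2.99, 13.5% ± 2.05 and 13.1% ± 0.943 in the same order, against 9.44%. All 9 IP libraries, from 11.2% to 19.0%, lay above the input for Gabrd. Gabra3 went the other way, with 16.9% of the input and 10.9% to 13.9% of the 9 IP libraries. For Gabra4 the IP range was 12.4% to 16.3% against 12.4%, and for Gabra5 it was 10.3% to 19.7% against 13.2%. These shifts in make-up against the 1 input library were not tested.

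**Figure D3:**
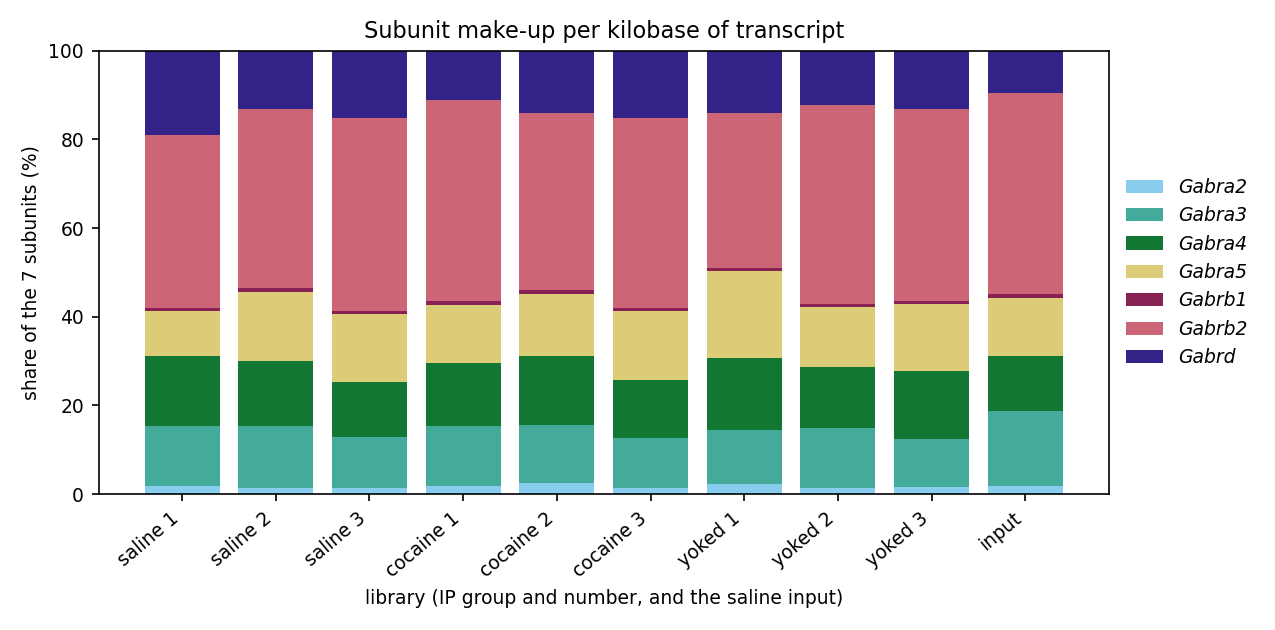
Share of each subunit gene in the 7 summed per kilobase (vertical axis, percent) for the 9 IP libraries and the input. The Gabrd segment is 9.44% of the input and 11.2% to 19.0% in IP libraries.

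Cocaine against saline is the contrast the series title names, and the yoked group is a further control. None of the 7 subunits was called in any contrast between IP groups. Against saline IP, cocaine IP gave log2FC from -0.22 ± 0.25 (SE) for Gabrd to 0.34 ± 0.24 for Gabra2, with edgeR adjusted p of 0.990 to 0.995. Gabra2 was at 12 ± 1.90 CPM in cocaine IP and 9.41 ± 1.85 in saline IP (SD, n = 3), and the libraries of the groups overlapped. The 95% intervals of the 7 together ran from -0.77 to 0.85, so changes of that size are not excluded for the more variable genes. For Gabra3, the steadiest, the interval was -0.39 to 0.26, and for Gabra4 it was -0.37 to 0.35.

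Yoked IP against saline IP gave log2FC from -0.20 ± 0.25 for Gabrd to 0.28 ± 0.24 for Gabra2, with Gabra5 at 0.27 ± 0.27 and Gabra4 at 0.17 ± 0.17. Cocaine and yoked share the saline libraries as their reference, so the like order of Gabra2 and Gabrd in both is not independent. Cocaine IP against yoked IP gave log2FC from -0.24 ± 0.27 for Gabra5 to 0.06 ± 0.24 for Gabra2. It uses the same cocaine and yoked libraries as the contrasts with saline and is not independent of them either. Gabra4 was at 63.4 ± 8.23 CPM in cocaine IP and 71.7 ± 11.1 in yoked IP (SD, n = 3), a log2FC of -0.18 ± 0.17 with an interval of -0.54 to 0.18. The joint test of any difference among the 3 groups gave unadjusted p from 0.345 (Gabra2) to 0.971 (Gabrb2) in edgeR.

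In none of the 3 contrasts did the groups of a subunit stand apart without overlap, where 8.97%, 6.08% and 4.74% of 16642 genes did for cocaine against saline, yoked against saline and cocaine against yoked. Calls in the whole table were as few: edgeR and DESeq2 each called 0 genes in these contrasts and in the joint test, which is 0.0% of the table. At an unadjusted p under 0.05, edgeR gave 530 genes (3.18%), 398 (2.39%), 159 (0.955%) and 268 (1.61%) in that order, and 0 of the 7 subunits.

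**Figure D4:**
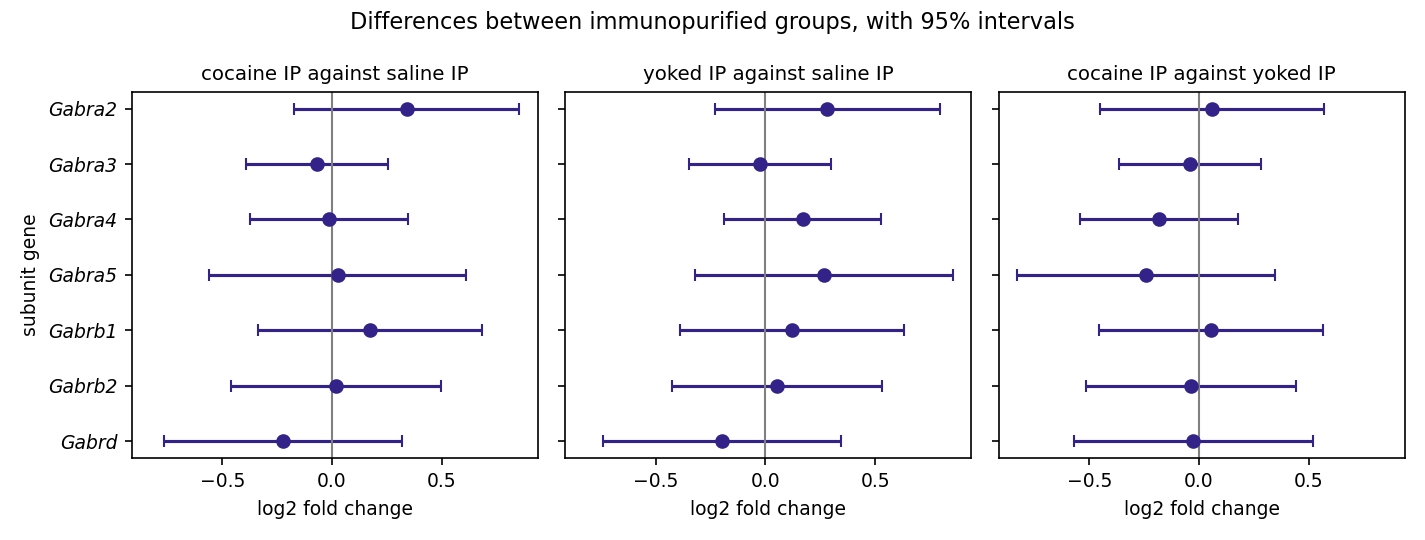
Log2 fold change (horizontal axes) of the 7 subunit genes in the 3 contrasts between IP groups, with 95% intervals as bars. Every interval spans 0, and the widest reach -0.83 and 0.85.

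Libraries of the same group also differed from each other. Gabra4, Gabrb1, Gabrb2 and Gabrd were highest in the library numbered 3 in all 3 groups, which held for 16.1% of all genes tested. For Gabrb2, library 3 exceeded the mean of the other 2 by 0.69, 0.48 and 0.41 (log2 CPM) in saline, cocaine and yoked IP, and for Gabrd by 0.50, 0.74 and 0.27. Gabra5 was up by 0.82 and 0.66 in saline and cocaine but by 0.18 in yoked, where library 1 was higher still. Gabra2 did not take part, at 0.28, -0.10 and 0.04. The excitatory and meningeal marker sums given above were higher in these same 3 libraries, endothelial markers were too (12 genes, 108 to 109 CPM against 69.4 to 88.9), while oligodendrocyte sums were 260 to 355 CPM against 325 to 902. Pan-neuronal sums (19 genes) tended the other way, at 26425 to 32696 CPM against 29197 to 39928.5, and the ranges overlapped. Interneuron sums were 473 to 634 CPM in them against 585 to 1067 in the other 6, and the GABA-synthesising enzyme genes Gad1 and Gad2 were lowest in library 3 of every group. Their part in the subunit values was not tested.

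Across the 9 IP libraries, 18 of 21 pairs of the subunits correlated above 0 (Pearson's r of log2 CPM, median 0.58). The points share library depth and composition, so these values are a description. The highest was Gabra3 with Gabrb2 (0.90), followed by Gabrb1 with Gabrb2 (0.80). The neighbours Gabra4 and Gabrb1, whose starts are printed above, reached 0.29, while Gabra4 with Gabrd, the pair of tonic receptors, reached 0.74. That value did not set the pair apart, as Gabra4 with Gabra5 reached 0.73 and Gabra3 with Gabrd 0.71. The 3 pairs below 0 all held Gabra2, with Gabrb1 (-0.22), Gabra3 (-0.11) and Gabrb2 (-0.03).

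Among 12835 genes compared over the 9 libraries, the pattern of Gabrb2 was most like those of Tenm3, a teneurin adhesion protein (r = 0.99), and the NMDA receptor subunit Grin2b (0.99). Gabra3 was most like the inwardly rectifying potassium channel gene Kcnj3 (0.95) and the zinc transporter gene Slc39a3 (0.95). Gabra4 was closest to Rhobtb2 (0.97) and Iglon5 (0.96), Gabrd to Nell1 (0.95) and Ppp6r1 (0.95), and Gabra5 to Pomk (0.95) and Epdr1 (0.94). Gabrb1 was closest to the ephrin receptor gene Epha6 (0.97) and the actin-bundling Fscn1 (0.96). Gabra2 had lower best values, with Wdpcp (0.88) and AK030561 (0.84).

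**Figure D5:**
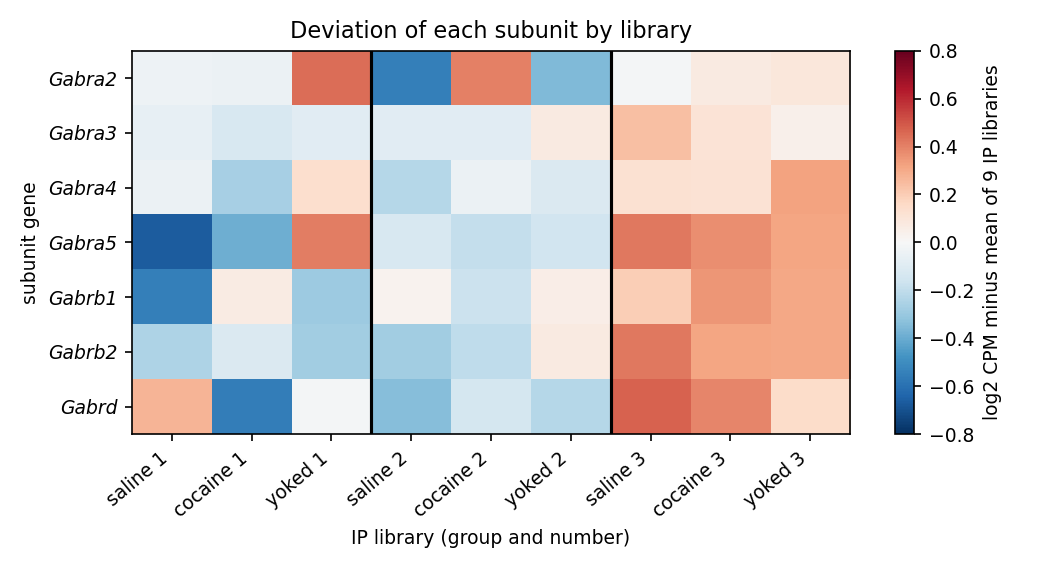
Colour gives the log2 CPM of each subunit gene (rows) minus its mean over the 9 IP libraries (columns, ordered by library number and then group). The 3 columns numbered 3 are above the mean for every gene except Gabra2 in saline, and the Gabra2 row follows another order.

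Of 9 further subunit genes, 5 had enough reads to test against the input and 0 were called. The saline IP level of Gabrg3 was 6.42 ± 1.90 CPM (SD, n = 3) against 10.3 in the input, and that of Gabrg1 4.11 ± 2.51 against 9.32 (log2FC -1.18 ± 0.57, edgeR adjusted p = 0.219). Gabrq, the theta subunit, was at 0.834 ± 0.607 CPM against 1.28. The rho subunits Gabrr1 and Gabrr2, known from retina, were at 0.427 ± 0.701 and 0.140 ± 0.132 CPM against 0.119 and 0.149. Gabra6, typical of cerebellar granule cells, Gabre, Gabrp and Gabrr3 had at most 4, 2, 1 and 3 counts in an IP library, and each had 0 in the input, which allows up to 0.0448 CPM (3 counts).

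Proteins that hold receptors at inhibitory synapses or move them through the cell had 2 of 24 transcripts lower in saline IP and 1 higher, a share near the 11.3% of all genes called, with a median log2FC of -0.31. Mdga1 (-1.25 ± 0.35, edgeR adjusted p = 0.0333) and Mdga2 (-0.97 ± 0.25, 0.0228), which bind neuroligins and restrain synapse formation, fell. Gabarap, the GABA-A receptor-associated protein of trafficking and autophagy, rose by 0.83 ± 0.22 (adjusted p = 0.0252), from 185 CPM in the input to 329 ± 40.1 (SD, n = 3).

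Of 8 genes of GABA synthesis, packaging, uptake and breakdown, 1 fell and 1 rose (median -0.86). For this list and those below, the share called among all genes tested was 11.3%, with 4.26% lower and 7.07% higher. The astrocyte GABA transporter Slc6a11 was at 8.78 ± 4.97 CPM in saline IP against 35.5 (-2.02 ± 0.49, edgeR adjusted p = 0.0166). Slc6a13, a transporter of the meninges, was at 136 ± 6.45 against 5.05 CPM (4.75 ± 0.40, adjusted p = 8.98e-06) and is also on the meningeal list. Chloride transport genes, which set the direction of the GABA current, had 1 of 10 lower, the kinase Wnk3 (-0.64 ± 0.18, adjusted p = 0.0377; list median -0.23), again a share near that of all genes. Of 6 genes of GABA-B receptors, the slower G protein-coupled class, the auxiliary subunit Kctd8 fell (-1.35 ± 0.39, adjusted p = 0.0415) and Kctd12b rose (1.64 ± 0.33, adjusted p = 0.00545; list median -0.12). Subunits of AMPA and NMDA receptors, the excitatory counterpart, had 3 of 11 lower and a median of -0.57: Gria1 (-1.18 ± 0.27), Gria3 (-1.17 ± 0.31) and Grin3a (-1.39 ± 0.32), with adjusted p of 0.0134, 0.0255 and 0.0126. No gene of these lists was called between IP groups.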

How the data were processed

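Cerebral cortex IP RNA (9 libraries) and input RNA (1 library) were sequenced. The authors deposited raw read counts per gene symbol, 1 table per library. Tools named in the submitters' processing notes are STAR 2.0.0e and HTSeq, with the build mm10. Strand setting and annotation: not given in the sources used here. Entries that name no gene (6) were left out; reads aligned to more than 1 place were 38.3% to 46.8% of reads in IP libraries and 38.6% in the input, and were not counted to genes. Reads ambiguous between genes were 1.58% to 1.9% of reads in IP libraries and 5.65% in the input, and were not counted to genes either. Depth was 38653752 to 69974908 counts per library.

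Groups came from the sample titles. The test was edgeR 4.0.16 (R 4.3.3; TMM, filterByExpr with a minimum count of 10, quasi-likelihood, Benjamini-Hochberg over all genes, called under 0.05), tested on simulated data. The IP groups were compared in a fit of 9 libraries, and saline IP with input in a fit of 10. CPM used TMM factors; intervals are 95%. Correlations used log2 CPM with a prior count of 2, over genes with a mean of at least 1. Alternatives were other size factors, pan-neuronal scaling, DESeq2 1.42.0, no filter, removal of the trend on transcript length, a replicate block, other sets of libraries and each library left out. The fit without the libraries numbered 3 was chosen after seeing the data. Gene positions and lengths are GENCODE M21 (GRCm38), with a length for 87.5% of the genes tested against input and 90.7% of those tested between IP groups. All 7 subunits are named. Called genes of the other lists are named, with at most 6 per list, and for likeness the 2 genes with the highest r. The members and lists were chosen with earlier results of these data known. Of 12 further subunit genes on the list, 3 are not reported here and were left out of the search for likeness, a departure from the naming rule made after seeing the files.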

Additional observations from a re-analysis of the deposited data

How the results depend on the processing

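Against the input, 2 of the 7 subunits were called lower. That count was 1 with pan-neuronal scaling, 1 with the length trend removed, 1 to 4 without a saline replicate, 4 with all 9 IP libraries against the input and 6 without the 3 libraries numbered 3. Nothing in the labels says that a replicate number marks a shared animal or day, and the numbers did not pair the samples throughout: same-numbered deviations correlated at 0.534 to 0.569 for number 3 and 0.13 to 0.479 for number 2, but at -0.104 to 0.271 for number 1, where pairing was taken to need over 0.1 in every pair. With a replicate block 6 of the 7 (not Gabrd) and 3537 genes were called, against 2089; Gabra4, Gabra5, Gabrb1 and Gabrb2 then had adjusted p of 0.0265, 0.0485, 0.00951 and 0.000864. Over all genes, leaving out a saline replicate gave 1464 to 2075 calls. Pan-neuronal scaling moved the median gene by 0.17 against the input and by -0.15 and -0.14 in cocaine against saline and against yoked, and raised the share of calls that were higher in IP from 62.4% to 74.3%. Gabrd changed sign to 0.031 with library size alone and 0.14 with pan-neuronal scaling, and ran from -0.23 to 0.14 without a saline replicate. The cause of these changes was not tested.

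Between IP groups, 0 of the 7 were called in any of the 15 alternatives per contrast, the replicate block included (lowest adjusted p 0.590, 0.820 and 0.950). Signs turned with pan-neuronal scaling for cocaine against saline in Gabra5 (-0.091) and Gabrb2 (-0.12), and for cocaine against yoked in Gabra2 (-0.076) and Gabrb1 (-0.095). With the length trend removed Gabrb2 was -0.0082 for cocaine and Gabrb1 -0.020 for yoked against saline, and without the libraries numbered 3 Gabra3 was 0.075 for yoked against saline. Leaving out 1 replicate, cocaine against saline ran from -0.14 to 0.053 in Gabra3, -0.10 to 0.083 in Gabra4, -0.23 to 0.35 in Gabra5, -0.0065 to 0.34 in Gabrb1 and -0.15 to 0.29 in Gabrb2. Yoked against saline ran from -0.085 to 0.094 in Gabra3, -0.066 to 0.28 in Gabrb1 and -0.093 to 0.32 in Gabrb2. Cocaine against yoked ran from -0.13 to 0.27 in Gabra2, -0.12 to 0.0056 in Gabra3, -0.090 to 0.22 in Gabrb1, -0.21 to 0.12 in Gabrb2 and -0.31 to 0.17 in Gabrd. With the median in place of the longest transcript, saline IP shares were 1.11% for Gabra2, 18.2% for Gabra4, 10.5% for Gabra5, 0.959% for Gabrb1, 44.3% for Gabrb2 and 11.8% for Gabrd. A single input library and 3 libraries per group limit the precision more than the counts do.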

Other observations

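The gamma subunit gene Gabrg1 was lowest in the library numbered 3 of every IP group, opposite to most of the 7 subunits. It was at 2.74, 7.004 and 2.59 CPM in saline IP, 6.45, 6.11 and 3.27 in cocaine IP, and 4.36, 5.05 and 1.87 in yoked IP. Summed marker levels in the libraries numbered 3 against the other 6 were 473 to 634 against 585 to 1067 CPM for interneurons, 260 to 355 against 325 to 902 for oligodendrocytes and 1798 to 1974 against 1420 to 2321 for astrocytes, and their part was not tested. The gene was chosen after its values were seen, and no test was made.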
